A study of Mus musculus with 4 samples.

Results

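The 10 genes described here encode C-type lectin receptors of myeloid cells: Clec4a1, Clec4a2, Clec4a3, Clec4b1, Clec4n, Clec4d, Clec4e, Clec10a, Mgl2 and Cd209a. They were chosen by name, and each matched 1 feature of the 31253 genes in the count matrix. The series measured RNA in single F4/80-positive cells washed from the mouse peritoneal cavity, with 1 sample in each of 4 groups. The groups were Apoe-/- mice fed a high-fat diet and given anti-CVI-mAb, Apoe-/- mice fed a high-fat diet, Apoe-/- mice on a normal diet, and C57BL/6 (WT) mice on a normal diet. All samples came from mice labelled 24 weeks old. Apoe-/- mice lack apolipoprotein E and carry high plasma cholesterol. For both high-fat groups, male Apoe-/- mice received the diet (21% fat, 0.15% cholesterol) from 4 weeks of age for 20 weeks, and then normal chow shortly before immunization. At week 21 the antibody group was given 3 mg of anti-CVI-mAb in 200 µL into the peritoneum, and the high-fat group without antibody was given PBS. Both normal-diet groups also received PBS. Cavities were washed individually, and the labels do not give the number of mice behind a sample.

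The deposited matrix holds 26811 barcodes with suffixes 1 to 4, taken here as libraries 1 to 4. No label or header used here ties a suffix to a group, so no comparison between genotypes, diets or antibody treatment was made, and every value is given for each library. With no replicates, no test across samples was possible. Intervals are 95% and cover counting error only. The targeted gene Apoe had 30.1, 858, 734 and 29630 CPM (UMIs of the gene for every 1000000 UMIs of the cell set) in the myeloid cells of libraries 1 to 4, and no library was assigned from it. A 3′ tag need not lie in the deleted piece of the gene.

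C-type lectin receptors read sugars and lipids on microbes and on dying or altered cells. Clec4d (MCL) and Clec4e (Mincle) pair with the Fc receptor gamma chain, encoded by Fcer1g, and signal through the kinase Syk and the adaptor Card9, as does Clec4n (Dectin-2), which binds mannose-rich fungal walls. Clec4a2 (DCIR1) carries an inhibitory motif in its tail that recruits the phosphatases Ptpn6 and Ptpn11, and Clec4a1 and Clec4a3 are further members of the DCIR family. Clec4b1 (DCAR) is an activating relative that also uses the gamma chain. Clec10a and Mgl2 are galactose-type lectins used as markers of dendritic cells and of macrophages exposed to interleukin-4, and Cd209a is a mouse relative of human DC-SIGN that marks dendritic cells derived from monocytes. The mouse peritoneal cavity holds large macrophages, which carry Timd4 and Gata6, and smaller, monocyte-derived cells, which carry Ccr2 and class II genes. Folr2, a folate receptor gene, marks tissue macrophages.

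In these libraries the receptor genes fell into separate patterns. Clec4d was the most abundant receptor transcript in 3 of the 4 libraries. Its level and that of Clec4e differed little between cells with at least 3 Timd4 UMIs and those with fewer. Clec4b1 and Mgl2 were at least 2-fold higher in Ccr2-high than in Ccr2-low cells of every library, and Clec4a2 was in 3 of the 4. Cd209a differed in the same direction, but it helped to choose the cells, and with cells chosen by Adgre1 alone its log2 ratio was 0.93 in library 1. With the cells holding Cd209a RNA left out, the Mgl2 log2 ratio was lower in every library (0.38 to 2.54 against 3.45 to 4.10), while that of Clec4a2 moved little.

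Of the 10 genes, 7 lie on chromosome 6 in 1 run of 9 protein-coding genes, chr6:122921848-123289870 (GRCm38, GENCODE M21, 368 kb). In that run Clec4d and Clec4e are neighbours 6.52 kb apart. Mgl2 (chr11:70130329-70137550) and Clec10a (chr11:70156197-70170834) are neighbours on chromosome 11, 18.6 kb apart, and Cd209a (chr8:3743397-3748984, minus strand) is on chromosome 8. Of the remaining genes of the run, Clec4a4 was at 0.366 CPM or below and Clec4b2 had no UMI in any of the gated sets of myeloid cells.

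Promoters are shown for the genes on which the Ccr2 comparison turns, Clec4b1, Mgl2 and Cd209a, and for Clec4d and Clec4e, which went the other way. Each line gives the 250 bases before the RefSeq transcript start (GRCm38.p6), 5′ to 3′ on the gene's strand. Capitals mark matches, on either strand, to GAGGAA (a core letter run bound by PU.1, the myeloid ETS factor), TTGCNNAA (C/EBP), TGANTCA (AP-1), a pair of GAAA with 2 bases between them (interferon regulatory factors) or TTC and GAA with 4 bases between them (STAT6).
Clec4b1, chr6:123049712-123049961, plus strand: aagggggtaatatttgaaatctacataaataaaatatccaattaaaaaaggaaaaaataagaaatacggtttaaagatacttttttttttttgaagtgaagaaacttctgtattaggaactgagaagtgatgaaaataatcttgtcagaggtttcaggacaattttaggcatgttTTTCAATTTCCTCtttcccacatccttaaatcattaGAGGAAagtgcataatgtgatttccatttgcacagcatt
Mgl2, chr11:70130107-70130356, plus strand: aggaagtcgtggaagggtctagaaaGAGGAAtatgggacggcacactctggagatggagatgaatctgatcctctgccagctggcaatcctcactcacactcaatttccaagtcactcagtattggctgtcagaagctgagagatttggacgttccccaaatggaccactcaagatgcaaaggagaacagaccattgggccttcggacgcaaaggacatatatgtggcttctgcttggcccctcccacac
Cd209a, chr8:3748985-3749234, minus strand: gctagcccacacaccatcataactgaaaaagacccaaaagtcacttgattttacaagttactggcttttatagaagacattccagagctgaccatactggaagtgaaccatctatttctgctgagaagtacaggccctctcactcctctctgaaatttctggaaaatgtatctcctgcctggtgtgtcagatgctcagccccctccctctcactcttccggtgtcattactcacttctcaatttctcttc
Clec4d, chr6:123261857-123262106, plus strand: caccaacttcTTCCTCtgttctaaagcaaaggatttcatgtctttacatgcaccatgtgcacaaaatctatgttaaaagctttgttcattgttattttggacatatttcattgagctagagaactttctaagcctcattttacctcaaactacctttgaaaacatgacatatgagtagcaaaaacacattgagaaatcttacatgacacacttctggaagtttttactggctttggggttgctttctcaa
Clec4e, chr6:123289872-123290121, minus strand: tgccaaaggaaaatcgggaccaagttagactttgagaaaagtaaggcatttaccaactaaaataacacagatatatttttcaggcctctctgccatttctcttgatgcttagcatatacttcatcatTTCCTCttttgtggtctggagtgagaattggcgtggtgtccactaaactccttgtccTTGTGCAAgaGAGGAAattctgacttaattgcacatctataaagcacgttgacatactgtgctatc
RefSeq promoters were matched for 8 of the 10 genes, Clec4n and Clec10a being the others. The letters GAGGAA were in 6 of these 8 (Clec4a1, Clec4a3, Clec4b1, Clec4d, Clec4e and Mgl2) and in 23.3% of 32851 promoters of the same length. Clec4a3 had 2 promoters and held the match in promoter 2 only. The members are counted by gene and the background by single promoter, so the shares are not fully alike. TTGCNNAA was in Clec4e alone among the 8 and in 9.56% of all promoters, close to a GAGGAA match. The pair of GAAA was in Clec4b1 alone, where it overlaps a GAGGAA match, and in 2.98% of all promoters. The STAT6 motif was in Clec4a1 alone and in 5.85% of all promoters, and TGANTCA was in none of the 8 and in 6.75% of all promoters. These matches are letter counts in this window and say nothing of binding.

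Barcodes needed 500 or more genes and no more than 10% of counts from mitochondrial genes, and 20864 met both. Myeloid cells had at least 2 unique molecular identifiers (UMIs, each counting 1 captured RNA molecule) of Adgre1, the gene of F4/80, or of Cd209a, with none of Cd79a and Cd3e. They numbered 1560, 4246, 4379 and 5054 in libraries 1 to 4, which was 43.2, 70.5, 82.5 and 85.4% of kept cells. Their median depths were 8317.5, 12494, 13885 and 12873.5 UMIs, so library 1 was the shallowest. Cd209a alone admitted 22, 28, 45 and 37 of them. B cells (Cd79a of at least 2, no Adgre1, Cd209a or Cd3e), in which these receptors should be low, served as a measure of free RNA, with 586, 566, 310 and 275 cells at median depths of 9396, 7020.5, 4842.5 and 6354 UMIs. Asking for no Adgre1 leaves out B cells that picked up macrophage RNA of that gene, so the B cell values can understate free RNA. Shares of cells were taken after thinning each cell to 3000 UMIs, which dropped 85, 55, 24 and 30 myeloid cells of lower depth. The myeloid cells fit their label by macrophage genes: Adgre1, which helped to choose them, had 780, 556, 975.5 and 882.5 CPM and Csf1r 913, 584.5, 421 and 451 CPM. All 6 T cell markers together summed to 0.575 to 1.20 CPM, but cells with Cd3e, which is among them, had been left out. A low sum was thus partly fixed by the choice of cells. The 5 B cell markers summed to 141, 19.1, 8.41 and 7.44 CPM in the myeloid cells of libraries 1 to 4, with Cd79a absent by choice of cells. The same barcode sequence occurred under more than 1 suffix 52 times, which touched 6, 12, 18 and 18 myeloid cells.

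Clec4d, the receptor MCL, had 192, 224, 316 and 302 CPM in the myeloid cells of libraries 1 to 4. It was highest of the 10 in libraries 2, 3 and 4 and second in library 1. After thinning, 38.6, 45.7, 57.6 and 55.5% of myeloid cells held a Clec4d UMI (65.7, 82.9, 92.8 and 90.4% unthinned), against 2.27, 2.03, 3.82 and 3.59% of B cells. Its partner Clec4e, the receptor Mincle, had 64.5, 105, 99.4 and 119 CPM. Library 1 was the lowest for both, and a single cell held up to 46 Clec4e UMIs. The thinned share with Clec4e was 13.7, 25.1, 22.9 and 26.2% of myeloid cells (28.3, 62.9, 62.5 and 63.1% unthinned), against at most 1.15% of B cells. Clec4n, the receptor Dectin-2, was near the limit of detection, with 12, 105, 178 and 204 UMIs in all, or 0.886, 1.89, 2.81 and 3.01 CPM. Its thinned share was 0.271 to 0.796% of myeloid cells (0.769 to 3.56% unthinned), against up to 0.382% of B cells. The gamma chain gene Fcer1g, which these receptors need at the surface, had 1015, 1420, 1424 and 1355 CPM and was seen after thinning in 91.5 to 97.8% of myeloid cells (97.0 to 99.9% unthinned), against 9.79 to 15.3% of B cells.

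Among the DCIR family, Clec4a1 had 210, 156, 59.7 and 55.7 CPM. Libraries 1 and 2 were high and libraries 3 and 4 low, with intervals of 203 to 218 CPM in library 1 and 53.9 to 57.5 CPM in library 4. Its thinned share followed, at 44.3, 38.7, 15.8 and 14.4% of myeloid cells (71.7, 79.9, 47.2 and 42.0% unthinned) against 0 to 4.02% of B cells. Clec4a3 had 93.3, 97.2, 60.5 and 62.0 CPM and was seen in 22.8, 25.2, 15.8 and 16.2% of thinned myeloid cells (44.8 to 63.2% unthinned). Clec4a2, the inhibitory receptor, had 27.5, 34.5, 12.2 and 21.1 CPM and a thinned share of 5.02, 8.54, 3.15 and 5.29% (10.9 to 26.6% unthinned). The B cell shares were at most 2.59% for Clec4a3 and 0.370% for Clec4a2. The activating relative Clec4b1 had 17.3, 8.16, 4.78 and 4.87 CPM, highest in library 1, with thinned shares of 3.46, 2.29, 1.40 and 1.15% (3.31 to 6.67% unthinned) and at most 0.185% in B cells.

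Of the galactose-type lectins, Clec10a had 111, 35.9, 64.6 and 42.7 CPM, and Mgl2 had 23.7, 7.06, 8.51 and 9.93 CPM. Library 1 was the highest for both and library 2 the lowest. Thinned shares were 21.8, 10.1, 16.1 and 9.93% for Clec10a (31.3 to 45.9% unthinned) and 3.25, 1.10, 1.61 and 1.91% for Mgl2 (3.25 to 6.22% unthinned). In B cells they were at most 2.45% and 0.175%. Cd209a had 38.5, 9.22, 14.8 and 15.0 CPM in thinned shares of 2.85, 0.883, 2.46 and 2.43% (1.32 to 6.33% unthinned), with no Cd209a in B cells, which were chosen without it. Cd209a came in few, rich cells: a positive cell held 6.35, 9.16, 3.39 and 3.41 UMIs on average, and the 10 richest cells held 64.1, 57.5, 25.2 and 28.4% of all Cd209a UMIs. Of the 50-base windows in the last 500 bases of each gene's protein-coding transcripts, 15.6% of those of Clec10a also occur in Mgl2 transcripts. The shares were 12.9% for Clec4b1 in Clec4a2, and 8.96% for Clec4a2 in Clec4a4 or Clec4b1. Such windows of Mgl2 were shared at 2.69%, with genes other than Clec10a. No source used here says how shared reads were counted. A share of windows is not a share of reads, so the effect on the levels of these genes is not known.

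**Figure D1:**
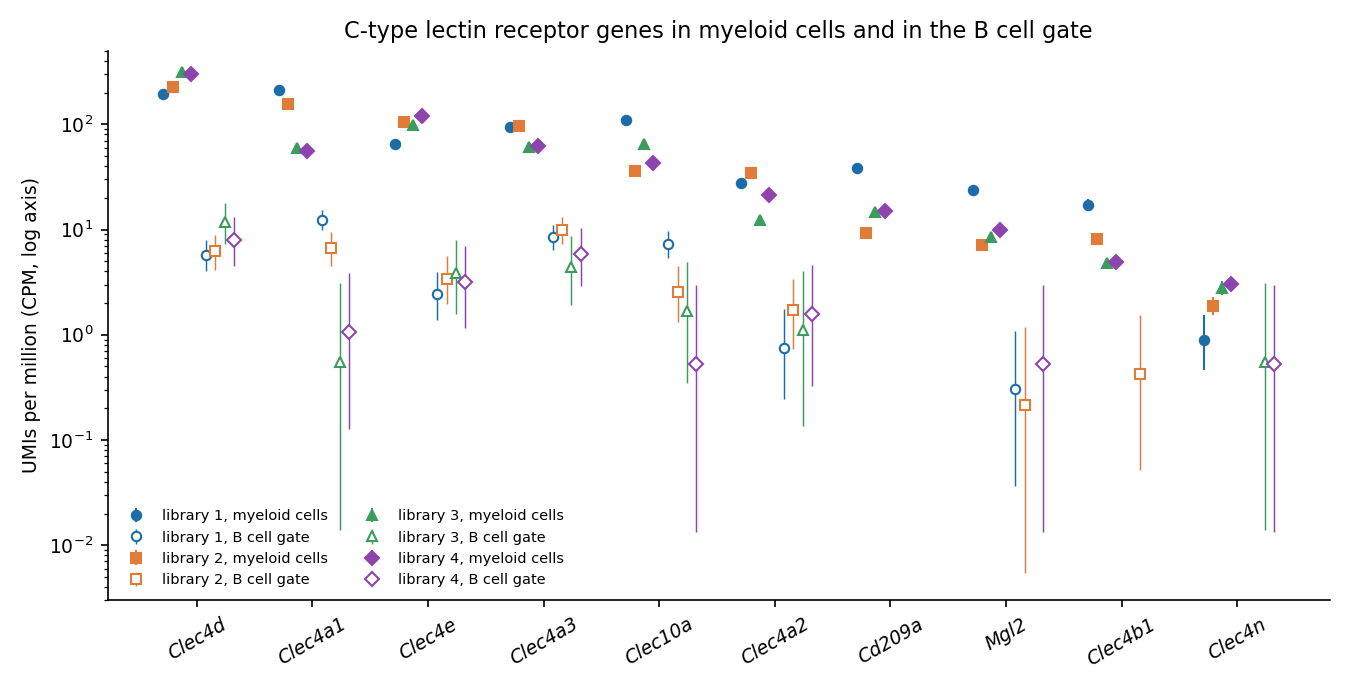
Levels of the 10 receptor genes in myeloid cells (filled) and in the B cell gate (open) of libraries 1 to 4, in CPM on a log axis, ordered by median level, with 95% Poisson intervals. Sets with 0 UMIs are not drawn. Clec4d lies at 192 to 316 CPM in myeloid cells, and Clec4n at 0.886 to 3.01 CPM.

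Ordered by their median over the 4 libraries, the genes ran Clec4d, Clec4a1, Clec4e, Clec4a3, Clec10a, Clec4a2, Cd209a, Mgl2, Clec4b1 and Clec4n, from 263 down to 2.35 CPM. The kit counts 1 end of each transcript, so these levels were not divided by length. Neighbours in this order overlapped in their ranges over libraries at all but 2 steps. Clec10a was above Clec4a2, and Clec4b1 above Clec4n, in all 4 libraries with no overlap of the ranges. The highest library exceeded the lowest 1.61-fold for Clec4a3, 1.65-fold for Clec4d and 1.85-fold for Clec4e, and 2.82-fold to 4.18-fold for the other 7 genes. Together the 10 genes summed to 779, 679, 644 and 636 CPM, a narrower spread than that of any single member. Clec4a1 made up 27.0, 23.0, 9.28 and 8.76% of that sum and Clec4d 24.7, 33.0, 49.1 and 47.6%. Libraries 1 and 2 therefore differed from libraries 3 and 4 in the makeup of the sum more than in its size. At least 1 of the 10 genes was seen in 82.9, 84.7, 81.2 and 79.6% of thinned myeloid cells, against 12.2, 7.95, 6.49 and 4.78% of B cells, and at least 3 in 18.0, 18.6, 12.7 and 11.7%.

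Myeloid cells were next split by 3 genes. Timd4-high cells (at least 3 UMIs) numbered 122, 541, 2069 and 2657, which was 7.82, 12.7, 47.2 and 52.6% of myeloid cells. Folr2-high cells (at least 2 UMIs) numbered 855, 952, 321 and 303, and Ccr2-high cells (at least 3 UMIs) 185, 825, 175 and 310. Few cells were both Timd4-high and Ccr2-high, 2, 38, 18 and 20. A gene was called past the fold where it reached 20 CPM in the higher set and differed by at least 1 on the log2 scale, with the same sign, in all 4 libraries. Ratios below are log2 ratios of CPM, high over low, with the gating gene left out of the totals. Timd4-high cells were the deeper in all 4 libraries, with median depths of 8846, 14372, 14754 and 13750 UMIs in Timd4-high cells against 8272, 12297, 13253.5 and 11954 UMIs in Timd4-low cells. Folr2-high cells were also the deeper in all 4 libraries, at 9127, 13885, 15178 and 15424 UMIs, against 6933, 12236, 13817 and 12763 UMIs in Folr2-low cells. The part of depth in the results was not tested beyond the thinned shares and gates.

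Cells with much Timd4, the phosphatidylserine receptor of resident large macrophages, carried as much Clec4d and Clec4e as the rest. Clec4d had 197, 223, 314 and 301 CPM in Timd4-high cells, against 192, 224, 318 and 304 CPM in Timd4-low cells. The sets differed by no more than 0.04 on the log2 scale in any library, and each interval lay within 0.24 of 0. Clec4e had 59.3, 108, 96.9 and 123 CPM in Timd4-high cells, against 65.0, 104, 102 and 114 CPM in Timd4-low cells, with ratios of -0.12, 0.05, -0.07 and 0.10. Of the 5 receptor genes at 20 CPM in all libraries, 0 were past the fold in either direction, where 0.0426% of 4699 genes were higher and 0.0851% lower. Clec4a1 and Clec4a3 were lower by a smaller amount in all 4 libraries, as were 12.6% of all genes. Clec4a1 had 147, 131, 49.998 and 48.6 CPM in Timd4-high cells, against 216, 161, 69.9 and 65.1 CPM in Timd4-low cells, a median ratio of -0.45. Clec4a3 had a median ratio of -0.25.

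Clec4b1, Mgl2 and Clec4a2 were lower in Timd4-high cells of each library but did not reach 20 CPM in every library, so they were outside the count. Clec4n had ratios of 1.39, 0.62, -0.49 and 0.00, and its direction differed between libraries. Clec4b1 had 3.54, 3.26, 0.957 and 1.64 CPM in Timd4-high cells, against 18.5, 9.01, 8.79 and 9.13 CPM in Timd4-low cells, with ratios of -2.22, -1.44, -3.18 and -2.47. Mgl2 ratios were -1.30, -1.28, -1.04 and -0.95, and Clec4a2 ratios -0.98, -0.47, -1.78 and -1.67. With Adgre1 alone choosing the cells, the median Mgl2 ratio was -0.01 in place of -1.16. Cd209a differed between libraries. It had 58.4 CPM in Timd4-high cells against 36.7 CPM in Timd4-low cells of library 1, and 1.93, 7.35 and 7.999 CPM in Timd4-high cells against 10.5, 22.7 and 24.2 CPM in Timd4-low cells of libraries 2, 3 and 4. In library 1 that rests on 27 Timd4-high cells with a Cd209a UMI, which held 66 UMIs. In libraries 3 and 4, 145 of 277 and 171 of 298 cells with a Cd209a UMI were Timd4-high, where 47.2 and 52.6% of all myeloid cells were. The richest Timd4-only cell there held 9 and 6 Cd209a UMIs. The median Cd209a ratio was -1.61, and 0.59 with Adgre1 alone choosing the cells.

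**Figure D2:**
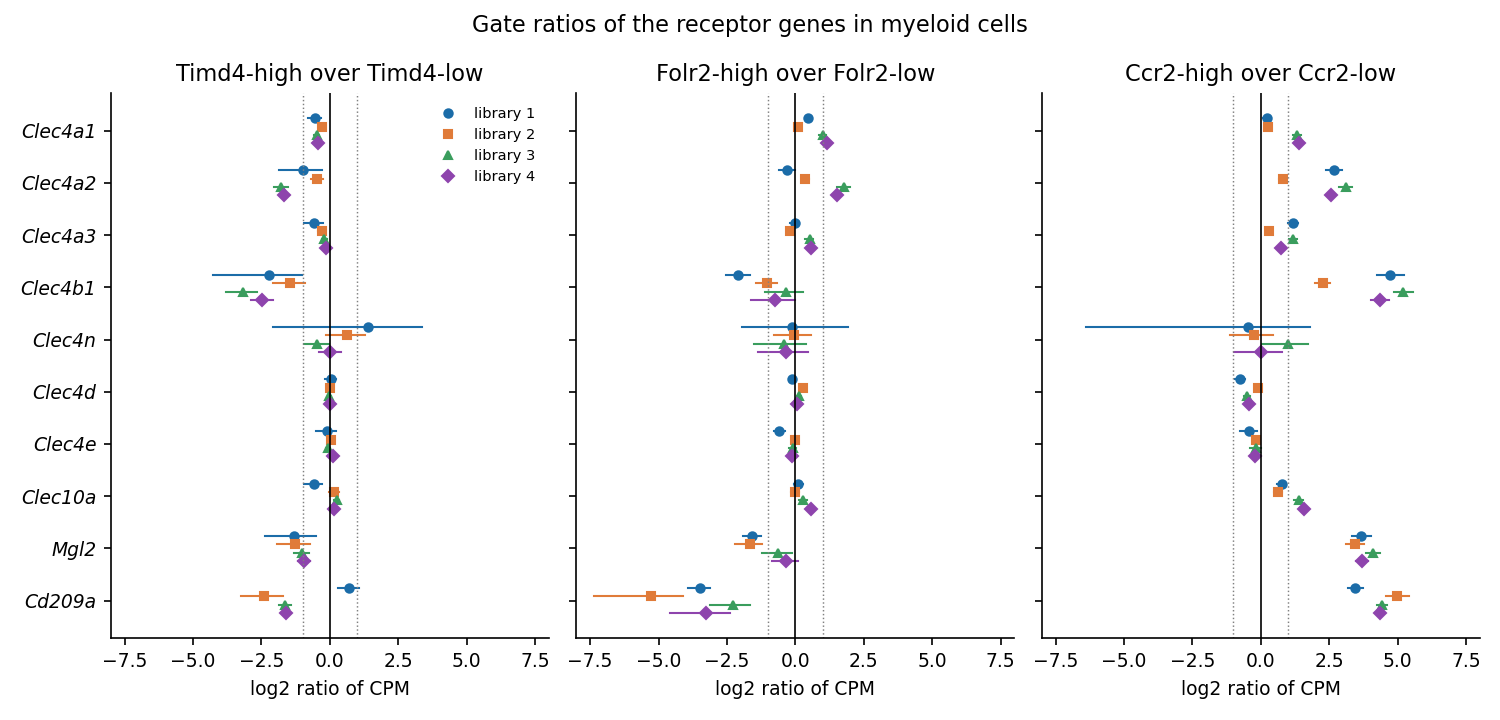
Log2 ratio of CPM in Timd4-high over Timd4-low, Folr2-high over Folr2-low and Ccr2-high over Ccr2-low myeloid cells for each receptor gene and library, with 95% intervals from counting. Dotted lines mark a log2 ratio of 1 in either direction. Clec4b1 and Mgl2 lie at 2.27 or more for Ccr2 in all 4 libraries, as does Cd209a, which helped to choose the cells, and Clec4d lies within 0.04 of 0 for Timd4.

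Folr2 splits the cells differently. Clec4a1 was higher in Folr2-high cells of every library, at 236, 164, 111 and 114 CPM against 172, 154, 55.0 and 50.9 CPM in Folr2-low cells. Its ratios of 0.46, 0.10, 1.01 and 1.16 were largest in libraries 3 and 4. Across all genes 44.6% of 4854 were higher by some amount in all 4 libraries. Clec4e was lower in all 4 libraries, by 0.59 in library 1 and by at most 0.14 in the others, as were 8.67% of genes. In library 2 the Clec4e levels were nearly equal, at 104.9 CPM in Folr2-high cells and 105 CPM in Folr2-low cells, and the intervals of libraries 2 and 3 include 0. Of the 6 receptor genes at 20 CPM in all libraries, 0 were past the fold, where 0.0824% of genes were higher and 0.0618% lower. Clec4a2 had 25.2, 41.4, 34.4 and 53.3 CPM in Folr2-high cells, against 31.1, 32.1, 10.2 and 18.5 CPM in Folr2-low cells. It was thus lower in library 1 (-0.31) and higher in libraries 2, 3 and 4 (0.37, 1.76 and 1.53). Cd209a was scarce in Folr2-high cells, at 7.44, 0.280, 3.16 and 1.57 CPM against 84.3, 12.3, 15.9 and 16.1 CPM in Folr2-low cells. It helped to choose the cells, and those it alone admitted were nearly all Folr2-low. With Adgre1 alone choosing, Folr2-low cells numbered 684, 3266, 4013 and 4714 in place of 705, 3294, 4058 and 4751. The median Cd209a ratio was -3.38, and -3.57 to -2.08 over all settings tried, Adgre1 alone among them. Library 1 stood apart in this split: 54.8% of its myeloid cells were Folr2-high and Lyve1, a marker of resident macrophages, had 442 CPM in its myeloid cells, against 14.2 to 18.7 CPM in the others.

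In the Ccr2 split, 9 receptor genes reached 20 CPM in the higher set of all libraries, and 3 of them were past the fold upward, Clec4b1, Mgl2 and Cd209a, and 0 downward. These 3 reached that level through the Ccr2-high cells alone, being at 15.3 CPM or below in Ccr2-low cells, and Cd209a helped to choose the cells, so the count is a description and supports nothing about the family. Among all 4904 genes, 0.204% (10 genes) were past it upward and 0.245% (12 genes) downward, and Batf3, Olfm1, Sirpb1c, Ptms, Plbd1, Emb and Retnla were the other 7 upward. Clec4b1, the activating receptor DCAR, had 94.2, 22.2, 70.3 and 43.7 CPM in Ccr2-high cells, against 3.57, 4.596, 1.90 and 2.13 CPM in Ccr2-low cells. Library 2 had the smallest contrast, with ratios of 4.71, 2.27, 5.21 and 4.36, and its interval of 1.997 to 2.54 lay below those of the others. Thinned shares for Clec4b1 were 20.2, 6.08, 19.4 and 10.6% of Ccr2-high cells, against 1.08, 1.37, 0.646 and 0.530% of Ccr2-low cells. Mgl2 had 109, 25.6, 86.7 and 72.2 CPM in Ccr2-high cells, against 8.53, 2.34, 5.06 and 5.54 CPM in Ccr2-low cells. Its ratios of 3.67, 3.45, 4.10 and 3.70 were alike in the 4 libraries. Cd209a had 168, 40.4, 171 and 135 CPM in Ccr2-high cells, against 15.3, 1.28, 7.94 and 6.55 CPM in Ccr2-low cells, but it helped to choose the myeloid cells, so its contrast is a description.

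The inhibitory receptor gene Clec4a2 had 97.1, 52.5, 79.3 and 94.4 CPM in Ccr2-high cells, against 15.1, 29.9, 9.26 and 15.9 CPM in Ccr2-low cells. Its ratios were 2.68, 0.81, 3.10 and 2.57, so library 2 alone kept it from the fold. Without library 2, 4 members were past it upward and 0 downward, where 1.15% of 4977 genes were higher and 0.743% lower under the same rule over 3 libraries. Clec4a3 (1.17, 0.31, 1.18 and 0.75), Clec10a (0.76, 0.62, 1.38 and 1.57) and Clec4a1 (0.22, 0.27, 1.33 and 1.41) were higher by less. In all, 7 receptor genes were higher by some amount in all 4 libraries, as were 25% of all genes. The other 2, Clec4d and Clec4e, were lower in all 4 libraries, as were 13.8% of all genes. Clec4d had 121, 211, 225 and 231 CPM in Ccr2-high cells, against 205, 227, 320 and 308 CPM in Ccr2-low cells. Its ratios were -0.76, -0.10, -0.51 and -0.41, and those of Clec4e were -0.44, -0.19, -0.18 and -0.20. The Clec4e interval reached 0 in library 3. Clec4n was too sparse for a direction, with 1 UMI in the Ccr2-high cells of library 1.

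Markers of other cell types moved with the Ccr2 split. The 11 dendritic cell markers summed to 464, 287, 424 and 364 CPM in Ccr2-high cells, against 295, 232, 112 and 120 CPM in Ccr2-low cells, and 6 to 11 of them reached 1 CPM in Ccr2-high cells. Ccr7 was at 0 there in libraries 1 and 4. The 6 classical monocyte markers summed to 2318, 4080, 2474 and 1761 CPM in Ccr2-high cells, against 2822, 3469, 1123 and 418 CPM in Ccr2-low cells. These markers did not all move alike. Chil3 and F13a1 were lower in Ccr2-high cells of library 1 and higher in libraries 2, 3 and 4. Ly6c2 was higher in all 4 libraries (11.2, 13.9, 16.4 and 7.17 CPM against 0.435, 5.75, 0.577 and 0.458 CPM), as was Plac8. The 11 large peritoneal macrophage markers summed to 3182, 6664, 5702 and 6133 CPM in Ccr2-high cells, against 8254, 8706, 12047 and 11656 CPM in Ccr2-low cells. Median depths were 10928, 12532, 13494 and 13197 UMIs in Ccr2-high cells, against 7968, 12483, 13900.5 and 12846.5 UMIs in Ccr2-low cells, so library 1 had the widest gap. The part of these markers in the Ccr2 contrasts was not tested.

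When the 3 gates were made disjoint, the highest Clec4b1, Mgl2, Cd209a, Clec10a and Clec4a3 levels in every library were in cells high for Ccr2 alone. Cd209a helped to choose the cells, and levels in these classes were not recomputed with Adgre1 alone. Those cells numbered 101, 638, 136 and 250, and they had 136, 27.5, 91.8 and 50.9 CPM of Clec4b1, against 5.84, 5.71, 3.17 and 3.72 CPM in cells high for no gate. Clec4b1 was at 1.64 CPM or below in cells high for Timd4 alone. Clec4a3 had 201, 124, 144 and 100 CPM in the Ccr2-only cells, against 68.7, 98.1, 56.7 and 57.1 CPM in the cells of no gate. Clec4a1 in libraries 3 and 4 was high in both Folr2-only (131 and 109 CPM) and Ccr2-only cells (147 and 130 CPM), against 57.1 and 49.6 CPM in cells of no gate. In libraries 1 and 2 the same cells of no gate already held 170 and 152 CPM of Clec4a1. The Clec4d level was lowest in Ccr2-only cells of all 4 libraries, at 87.5, 196, 197 and 218 CPM, against 239, 217, 323 and 315 CPM in cells of no gate.

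**Figure D3:**
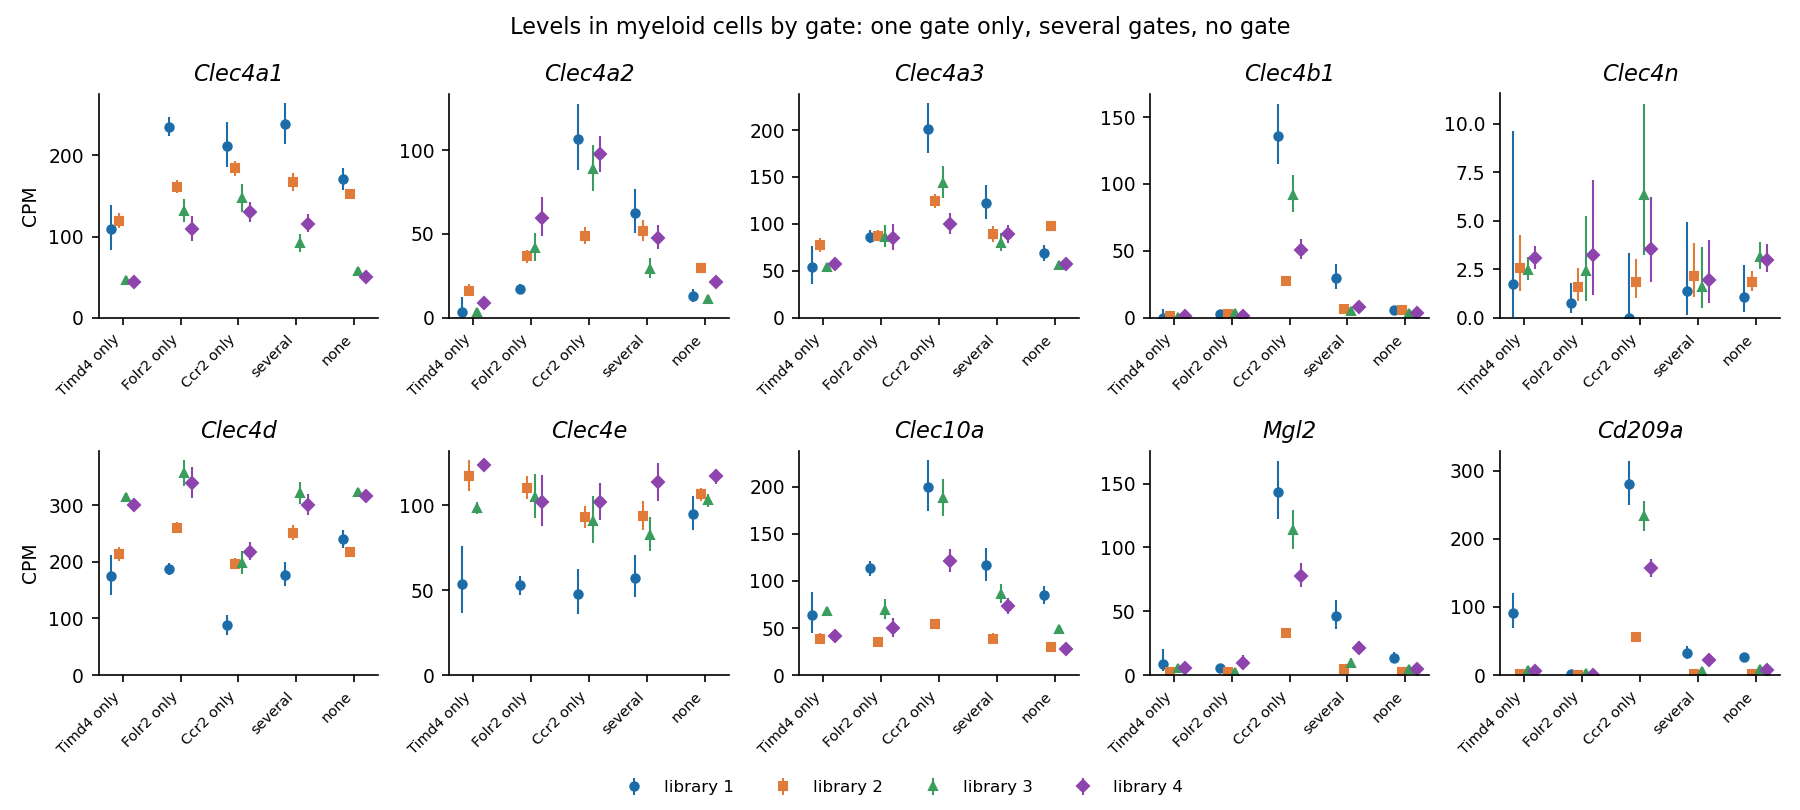
CPM of each receptor gene in myeloid cells high for Timd4 only, Folr2 only, Ccr2 only, several gates or no gate, in libraries 1 to 4, with 95% Poisson intervals and separate axes. Clec4b1, Mgl2, Clec10a and Clec4a3 peak in Ccr2-only cells, as does Cd209a, which helped to choose the cells. Clec4b1 has 27.5 to 136 CPM there, and Clec4d is lowest there at 87.5 to 218 CPM.

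Because Cd209a took part in choosing cells, the Ccr2 contrasts were repeated on cells with at least 2 Adgre1 UMIs only, where 0 receptor genes were past the fold in either direction and 0.123% of 4882 genes were higher and 0.246% lower. Clec4b1 kept ratios of 4.68, 1.59, 4.42 and 3.70 there but reached only 13.5 CPM in the Ccr2-high cells of library 2. Mgl2 had 2.82, 1.62, 1.42 and 2.59, reaching 6.91 and 13.4 CPM in the Ccr2-high cells of libraries 2 and 3. Cd209a had ratios of 0.93, 2.49, 2.19 and 3.25 there, against 3.46, 4.97, 4.43 and 4.36 with the cells it had admitted. With every cell holding a Cd209a UMI removed, 0 receptor genes were past the fold in either direction, where 0.103% of 4844 genes were higher and 0.227% lower. Clec4b1 then had ratios of 4.88, 1.32, 4.46 and 2.92, Mgl2 2.54, 0.90, 1.28 and 0.38, and Clec10a 0.00, 0.04, 0.26 and 0.17. Clec4a2, at 2.66, 0.81, 3.20 and 2.61, was about as large as before. Clec4e had ratios of -0.23, -0.15, -0.04 and -0.04, whose intervals include 0 in libraries 1, 3 and 4. Both the second choice of cells and the split that follows were made after the data were seen.

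Ccr2-high cells with a Cd209a UMI numbered 22, 34, 41 and 44, or 11.9, 4.12, 23.4 and 14.2% of Ccr2-high cells, fewer than the 50 cells asked of a set elsewhere. They held 66.2, 88.9, 48.7 and 59.2% of all Cd209a UMIs of myeloid cells. Cd209a alone could admit cells with fewer than 2 Adgre1 UMIs to this set, while all cells without Cd209a had at least 2. With Adgre1 alone choosing the cells, Ccr2-high cells numbered 169, 801, 144 and 285, in place of 185, 825, 175 and 310. The sets thus differ in how they were chosen, and the part of that in the contrasts below was not tested. Mgl2 had 503, 502, 425 and 477 CPM in Ccr2-high cells with a Cd209a UMI, against 38.5, 4.08, 11.9 and 6.76 CPM in those without. The sets were far apart in every library, with ratios of 3.70, 6.93, 5.14 and 6.12. Clec10a had 573, 420, 553 and 552 CPM in the cells with Cd209a, against 97.6, 32.9, 69.8 and 40.8 CPM in those without. Clec4b1 had 251, 271, 268 and 237 CPM with Cd209a, against 66.0, 10.9, 26.5 and 12.5 CPM without. In the cells with Cd209a the 4 libraries were close for each of these 3 genes, although library 2 was the lowest for all 3 in Ccr2-high cells before the split.

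The Mincle pair went the opposite way. Clec4d had 41.9, 92.2, 105 and 79.0 CPM in Ccr2-high cells with a Cd209a UMI, against 134, 217, 252 and 255 CPM in those without, with ratios of -1.63, -1.22, -1.25 and -1.68. Clec4e had no UMI in the 22 such cells of library 1, at least 6.00-fold lower than the 58.0 CPM without (3 UMIs taken as the floor, 9.66 CPM). In libraries 2, 3 and 4 it had 26.6, 41.3 and 24.2 CPM with Cd209a, against 97.4, 98.1 and 117 CPM without. By the same fold rule 3 of 8 receptor genes were higher and 2 lower, where 2.51% of 5094 genes were higher and 1.92% lower, and Mgl2 and Clec4b1 reached the level in all libraries through the cells with Cd209a. Clec4a3 was close between the sets, with ratios of 0.17, 0.16, 0.33 and -0.04, whose intervals all include 0. Clec4a1 and Clec4a2 had ratios of -0.59 to -0.27 and -0.90 to 0.12.

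**Figure D4:**
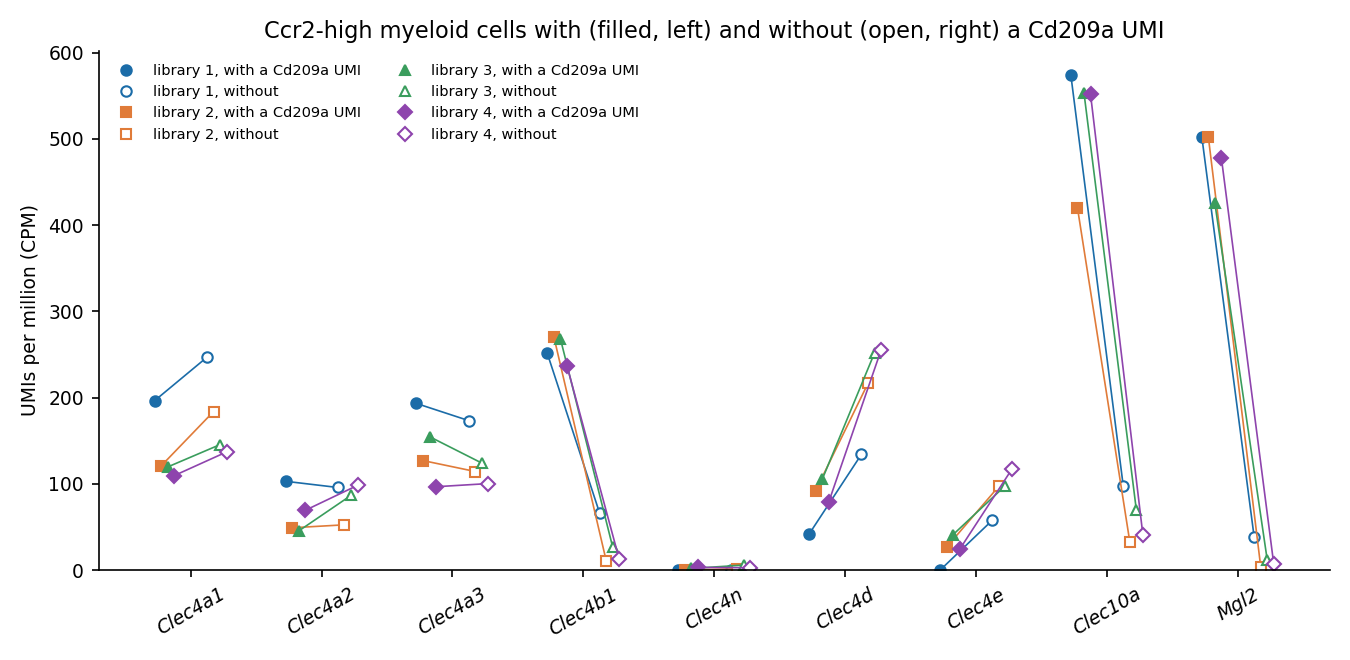
CPM of 9 receptor genes in Ccr2-high myeloid cells with a Cd209a UMI (filled, left) and without one (open, right), with a line joining the sets of each library. Mgl2, Clec10a and Clec4b1 are higher with Cd209a in all 4 libraries, and Clec4d and Clec4e are lower.

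Markers of other cell types moved with this split. The 11 dendritic cell markers summed to 975, 981, 1217 and 1151 CPM with Cd209a, against 373, 256, 249 and 237 CPM without, and 9 of the 11 reached 1 CPM in each library. The same list summed to 1007, 986, 986 and 1038 CPM in the B cell gate, so the sum does not mark dendritic cells. Flt3, Zbtb46, Itgax, Dpp4, Kmo and Napsa were higher with Cd209a in all 4 libraries, as was Clec9a, with 1 UMI in library 1. Flt3, a growth factor receptor of dendritic cells, had 70.9, 73.8, 116 and 91.9 CPM with Cd209a, against 12.1, 0.278, 4.56 and 2.86 CPM without. Sirpa had ratios of -0.08, -0.45, -0.04 and -0.03, whose intervals include 0 in libraries 1, 3 and 4. Cadm1 was higher in libraries 1 and 2 and lower in libraries 3 and 4 (1 UMI each). Ccr7 and Xcr1 were at 0 with Cd209a in all 4, while Xcr1 had 7, 1, 5 and 13 UMIs without. H2-Aa, a class II gene, had 12464, 10712, 10696 and 10928 CPM with Cd209a, against 5294, 3844, 2878 and 3907 CPM without. Csf1r, the macrophage growth factor receptor gene, had 361, 213, 155 and 218 CPM with Cd209a, against 795, 615, 485 and 480 CPM without. The 6 classical monocyte markers summed to 872, 1274, 705 and 469 CPM with Cd209a, against 2576, 4207, 2865 and 1969 CPM without. Chil3, F13a1 and Hp were lower with Cd209a in all 4 libraries. Ly6c2, which marks classical monocytes, had 70.9, 119, 51.6 and 3.23 CPM with Cd209a, against 0.574, 9.17, 8.67 and 7.81 CPM without, and was thus higher in libraries 1, 2 and 3. Plac8 had ratios of 1.33, -0.13, 1.23 and 0.94. The 5 B cell markers summed to 209.2, 113, 118 and 96.7 CPM with Cd209a, against 165, 21.2, 22.8 and 18.0 CPM without, with Cd79a at 0 by choice of cells. The part in the result of these genes, of admission by Cd209a alone and of barcodes holding more than 1 cell was not tested.

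Receptor genes were also compared cell by cell after thinning, as a description. Cd209a was seen in 29.4, 20.8, 49.2 and 46.6% of myeloid cells with a Clec4b1 UMI, against 1.90, 0.415, 1.79 and 1.91% of those without. For Cd209a given Mgl2 the shares were 29.2, 30.4, 18.6 and 20.8%, against 1.96, 0.555, 2.19 and 2.07%. Cells with both genes numbered 15, 20, 30 and 27 for Clec4b1 and 14, 14, 13 and 20 for Mgl2. Cd209a alone had admitted 22, 28, 45 and 37 cells to the myeloid set, and their part in these shares was not tested. Mgl2 was seen in 6.52, 2.59, 3.99 and 5.21% of cells with Clec10a, against 2.34, 0.929, 1.15 and 1.55% of those without. The neighbours Clec4d and Clec4e went together weakly: Clec4e was seen in 17.2, 25.4, 24.3 and 28.3% of cells with Clec4d, against 11.5, 24.8, 21.1 and 23.4% without, and the intervals overlapped in libraries 2 and 3. Clec4a3 was seen in 26.6, 27.3, 21.1 and 20.9% of cells with Clec4a1, against 19.8, 23.9, 14.7 and 15.4% without. Median depths before thinning differed for some of these splits. Cells with Clec4b1 had medians of 12143, 12178, 10961 and 11421 UMIs, against 8448, 12570, 13954.5 and 12925.5 UMIs without. Cells with Mgl2 had 11879 UMIs in library 1, against 8476 UMIs without, and cells with Clec4d 8524 UMIs, against 8691.5 UMIs without. The part of depth in these shares was not tested beyond the thinning.

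Over the 20 points given by 4 libraries and 5 disjoint classes, each receptor gene was set against 7174 genes by the Pearson correlation of log2(CPM + 5). The points share libraries and cells of 1 sort, and Cd209a helped to choose the cells, so these values describe likeness only. Clec4b1 was most like Ltb4r1, a leukotriene B4 receptor gene (r = 0.976), Plbd1 (0.973) and Ramp1 (0.971). Cd209a was most like Dpp4, which marks dendritic cells (0.936), then Mgl2 (0.895) and Slamf7 (0.893). Mgl2 was most like Slamf7 (0.954), Jaml (0.947) and Ltb4r1 (0.942). Clec4a1 was most like Axl, a receptor kinase gene for the uptake of dying cells (0.963), Clec4a3 like Lst1 (0.964), and Clec4a2 like Gm34084 (0.931) and the inhibitory lectin gene Clec12a (0.930). Clec4d was most like Aldh2 (0.925), Clec4e like Slpi (0.920) and Clec10a like Sulf2 (0.863). Clec4n was below the level asked. Among the receptors themselves, Clec4b1 and Mgl2 were most alike (0.934) and Clec4a3 and Clec4d least (-0.67).

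Other genes of these pathways were counted in the same way. Of 33 other C-type lectin genes listed, 32 were in the matrix (Clec7a was not analysed here), and 6, 7 and 8 reached 20 CPM in all libraries in the Timd4, Folr2 and Ccr2 splits. Of these, 0 were past the fold in any split. Clec12a came nearest, with 51.7, 34.9, 47.9 and 42.4 CPM in Ccr2-high cells, against 8.70, 21.0, 5.13 and 7.55 CPM in Ccr2-low cells, and fell short in library 2 as Clec4a2 did. Mrc1, the mannose receptor gene, had 497, 113, 139 and 130 CPM in Folr2-high cells, against 278, 48.0, 10.9 and 16.7 CPM in Folr2-low cells, with library 1 at 0.84 on the log2 scale. Of 13 activating adaptors and kinases, 11 reached the level in the Ccr2 split and 0 were past the fold. Their median ratios were 0.27, 0.10, 0.28 and 0.26, against -0.04, 0.01, 0.13 and 0.11 over all genes, and Syk had 0.37, 0.15, 0.56 and 0.34. Fcer1g differed by at most 0.54. All 8 inhibitory phosphatases and adaptors reached the level in the Ccr2 split, and 0 were past the fold, with median ratios of -0.26, 0.04, 0.37 and 0.26. Ptpn6 had -0.40, -0.05, 0.26 and 0.31.

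Of 16 cytokine and other genes known to be induced through these receptors, 1 reached 20 CPM in all libraries in each split, the chemokine gene Cxcl2. It had 17.6, 25.9, 36.3 and 71.3 CPM in Ccr2-high cells, against 24.3, 40.2, 55.7 and 102 CPM in Ccr2-low cells, the same side as Clec4d and Clec4e. Its ratios of -0.45, -0.63, -0.61 and -0.51 did not reach the fold. Cells with more Timd4 had 28.3, 55.9, 61.3 and 102 CPM of Cxcl2, against 22.8, 34.0, 48.1 and 97.3 CPM in Timd4-low cells.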

How the data were processed

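Single-cell libraries of sorted F4/80-positive peritoneal cells used the 3′ chemistry of 10x Genomics, per the labels' protocols. The authors deposited 1 matrix of raw UMI counts per gene and barcode. Per the file headers, Cell Ranger 5.0.1 produced it. CASAVA 1.8, Cell Ranger, Seurat and mm10 are named in the submitters' processing notes. Settings for counting, cell calling and shared reads: not given in the sources used here. Library totals were 40321459, 74067998, 73429015 and 78083803 UMIs for suffixes 1 to 4, and precision was given by exact intervals at 95% (Poisson for CPM, Clopper-Pearson for shares, conditional binomial for ratios). The 4 suffixes were not assigned to samples.

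UMIs were summed per library and cell set and divided by the set's total. A prior count of 0.5 was added in log2 ratios. Sets under 50 cells were left out, except in the split by Cd209a. Past the fold means 20 CPM in the higher set with the log2 ratio at 1 or beyond, of the same sign, in all 4 libraries. The 3 gates were taken as separate splits of the same cells. No doublet caller was run, and leaving out the 5% deepest barcodes was an alternative. The named genes were the 10 receptors, listed pathway genes, genes past the fold, and the 3 genes most like each receptor; Flt3, H2-Aa, Csf1r and Lyve1 are marker genes chosen after their values were seen. The members and lists were chosen with earlier results of these data known. Procedures were tested on simulated data. Computation used Python 3.11.15, numpy 2.4.6, scipy 1.17.1 and pandas 2.3.3, and edgeR 4.0.16 in R 4.3.3 for TMM scaling as an alternative only.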

Additional observations from a re-analysis of the deposited data

How the results depend on the processing

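With no level filter, and with 5 CPM in the higher set in place of 20, 1 receptor gene was past the fold downward in Timd4-high cells (Clec4b1) and 1 in Folr2-high cells (Cd209a), where 0 were in the main rule. No share over all genes is given for these filters, and Cd209a helped to choose the cells, so both calls are a description. With Adgre1 alone choosing the cells, and without cells holding a Cd209a UMI, 0 were past the fold upward in Ccr2-high cells in place of 3. Leaving out each library in turn gave 3 to 4 there, the fourth being Clec4a2 without library 2, and the other counts remained at 0. Of these, only the count without library 2 has a share over all genes given above. Among recomputed counts, 102 stayed within 1.5 times the main count and 6 did not. Among recomputed median ratios, 449 stayed within the half-width of their counting intervals (the median over libraries) and 88 moved beyond it. That yardstick covers counting error only, not the spread between libraries. All shares of cells moved without thinning, so shares depend on depth. No paired analysis was possible because each group has 1 sample and no suffix is tied to a group.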
